A study of Mus musculus with 12 samples.

Results

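The 10 matrix-remodelling genes described here were measured in mouse lung: the matrix metalloproteinases Mmp2, Mmp3, Mmp8, Mmp9, Mmp12, Mmp14 and Mmp19 and the tissue inhibitors of metalloproteinases Timp1, Timp2 and Timp3. They were taken by name, each from the single transcript cluster that carried its symbol alone, so that 10 of the 23410 clusters with a gene symbol were described. Left lungs of 12 mice had been profiled on Affymetrix MoGene arrays, 1 array per mouse and 3 mice per group, 5 days after an intratracheal dose of 30 µL of PBS, alone or with 0.075 U of bleomycin. Mice labelled Fra-1+/+ formed the groups WTC (PBS) and WTT (bleomycin), and mice labelled Fra-1-/- the groups KOC (PBS) and KOT (bleomycin). A mouse is named by group and by the number in its label, as in WTT 160. All were on a C57/129S background, and the labels give female mice of 2 months, whereas the methods give an older range of ages. Fra-1+/+ mice carried the floxed Fra-1 allele without Cre. Fra-1-/- mice carried it with Meox2 (Sox2)-Cre, which acts in the embryo and not in extra-embryonic tissue, so the gene was not lost in the lung alone or during injury alone. All values are log2 expression summarised by robust multi-array averaging (RMA), and changes are log2 differences of group means, given with their standard error (SE), unless called a fold.

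Metalloproteinases are zinc-dependent proteases that are made as inactive precursors and, once activated outside the cell or at its surface, cut collagen, elastin, proteoglycans, cytokines and one another's precursors. Timp proteins bind the active site and block it, so the balance between proteases and inhibitors sets how fast matrix turns over. In lung injury, both infiltrating leukocytes and resident fibroblasts and epithelium make these proteins. Fra-1, the product of Fosl1, is a subunit of the transcription factor AP-1, which binds the sequence TGACTCA, and several metalloproteinase promoters are classical AP-1 targets. Messenger RNA was measured here, not protease activity, and in whole lung fewer cells of a type and less RNA per cell cannot be told apart.

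The AP-1 sequence was searched on both strands (TGACTCA or its reverse, TGAGTCA) in the 250 bases before each start site that RefSeq gives on GRCm38.p6. It was present in 1466 of 32851 start sites of the genome, or 4.46%. RefSeq start sites were matched for 7 of the 10 genes (Mmp3, Mmp8, Mmp12, Mmp14, Timp1, Timp2 and Timp3). Of these, 2 held the sequence, Mmp3 and Mmp12. A gene was counted if any of its start sites held the sequence, whereas the 4.46% is a share of start sites. The 2 are therefore not the same measure. Those sites are shown with those of Mmp10 and Mmp13, the other genes of the family that held it and were higher after bleomycin in both genotypes. Capitals mark the searched sequence, and each run is written 5′ to 3′ along the gene's strand.
Mmp3, chr9:7445736-7445821, + strand: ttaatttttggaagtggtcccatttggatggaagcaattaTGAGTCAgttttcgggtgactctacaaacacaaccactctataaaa
Mmp12, the second of 2 start sites, chr9:7347290-7347373, + strand: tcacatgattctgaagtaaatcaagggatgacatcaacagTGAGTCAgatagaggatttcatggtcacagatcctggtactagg
Mmp10, chr9:7502239-7502325, + strand: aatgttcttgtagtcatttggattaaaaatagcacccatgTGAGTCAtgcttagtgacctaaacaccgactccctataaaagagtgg
Mmp13, chr9:7272439-7272513, + strand: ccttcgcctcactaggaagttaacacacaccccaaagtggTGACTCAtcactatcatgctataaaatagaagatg
The sequence lay 46 to 40 bases before the start of Mmp3, 44 to 38 before the second start of Mmp12, 63 to 57 before that of Mmp10 and 35 to 29 before that of Mmp13. It was not among the letters of the windows of Mmp8, Mmp14, Timp1, Timp2 and Timp3, nor in that of the first start site of Mmp12. A match says only that the letters are there.

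Several facts of the whole series bear on these values. Array medians lay between 7.14 and 7.22, and any 2 arrays correlated between 0.9737 and 0.9919 over all clusters. Fosl1, the targeted gene, lay at 6.37, 6.76 and 6.86 in WTC and at 6.68, 6.26 and 6.56 in KOC, groups that overlapped. After bleomycin it was 7.81, 8.19 and 8.32 in WTT and 7.33, 7.32 and 7.28 in KOT, so KOT lay below WTT but above both PBS groups. Where the probes of Fosl1 lie relative to the deleted part is not given in the sources used here. Sftpc, Ager and Scgb1a1, markers of alveolar and airway epithelium, were at 12.05 or more in all 12 arrays. The RNA in 12 of 12 arrays carried 3 Y-linked genes at 7.66 to 8.93 and Xist at 4.47 to 4.94, which goes against the female label of all 4 groups alike.

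After bleomycin most of the proteases and 1 of the 3 inhibitors were higher in both genotypes. In WTT against WTC 7 of the 10 genes rose and 0 fell (limma over all 23410 clusters, adjusted p under 0.05), where 10.2% of all clusters rose and 11.3% fell. In KOT against KOC 6 rose and 0 fell, beside 7.42% and 7.98% of all clusters. The median log2 fold change of the 10 genes was 1.20 in WTT and 1.23 in KOT, and that of all clusters tested was 0.02 in both. The 10 genes were chosen with earlier results of these data known. Counts and medians beside those of all clusters therefore describe the 10 genes and are no test of them. The same 6 genes, Mmp3, Mmp8, Mmp12, Mmp14, Mmp19 and Timp1, passed in both comparisons, and Mmp2 passed in WTT alone. Groups did not overlap for 7 of the 10 genes in Fra-1+/+ mice, against 35.7% of all clusters in either direction, and for 9 of 10 in Fra-1-/- mice, against 35.4%. None of the 10 passed the test between genotypes by limma, either with PBS or with bleomycin.

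**Figure D1:**
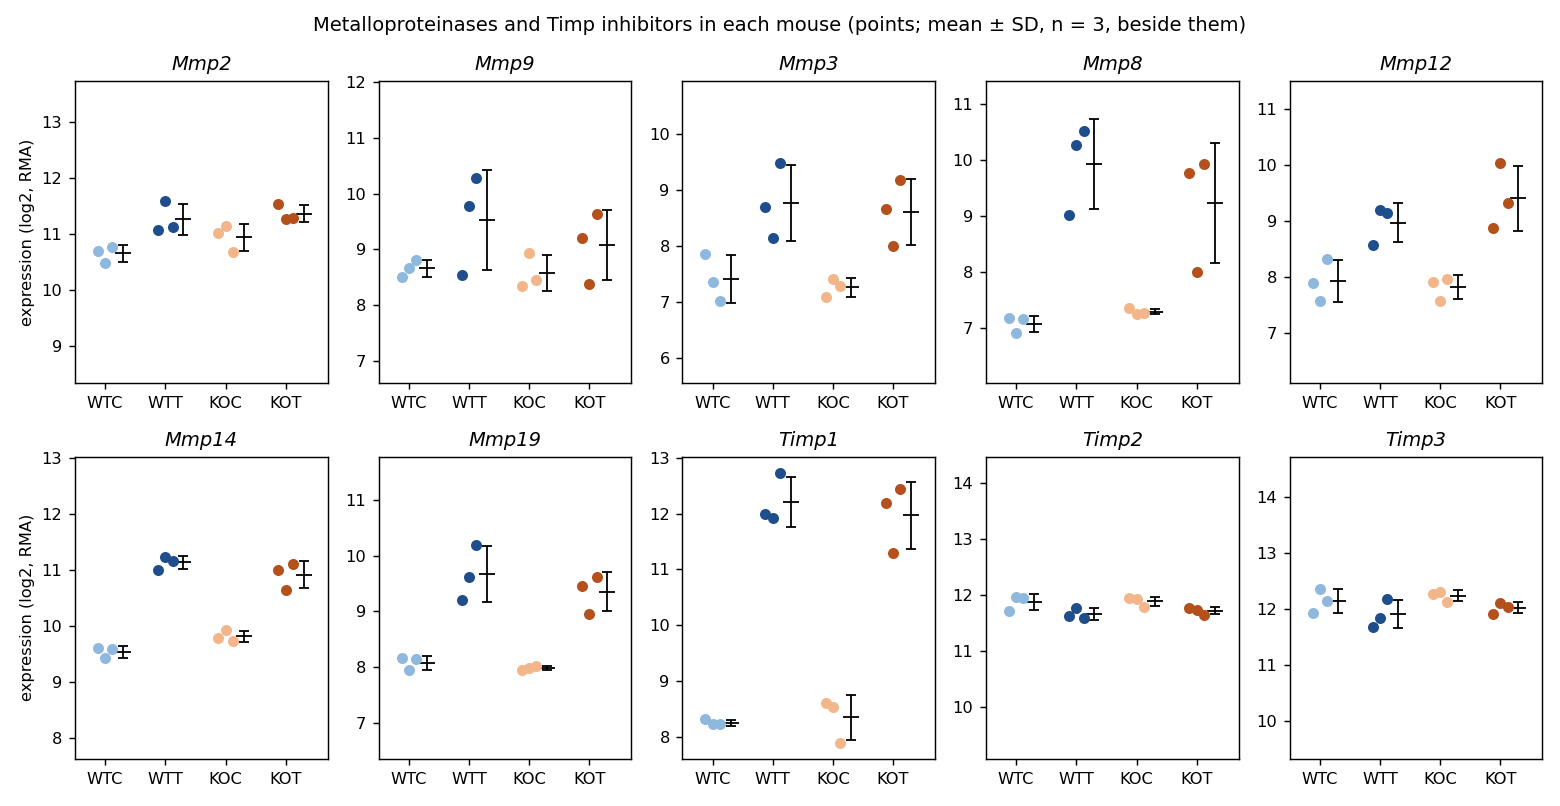
Log2 expression of the 10 genes in each of the 12 mice by group (WTC, WTT, KOC, KOT), with the mean ± SD of the 3 mice drawn beside the points. Each panel spans the same number of log2 units but has its own level, since levels of different probe sets are not comparable. Timp1 moved farthest between PBS and bleomycin, while Timp2 and Timp3 stayed within less than 1 unit over all 12 mice.

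Timp1, an inducible inhibitor of most secreted metalloproteinases, showed the largest change of the 10 genes. Its level was 8.32, 8.23 and 8.23 in the 3 WTC mice and 11.99, 11.92 and 12.73 in WTT. It was 8.62, 8.55 and 7.90 in KOC and 12.19, 11.30 and 12.44 in KOT. Every bleomycin-treated mouse therefore lay more than 2 log2 units above every PBS-treated mouse, in either genotype. Timp1 rose by 3.95 (SE 0.29, adjusted p = 5.4e-05 by limma) in WTT, a 15.5-fold change, and by 3.62 (SE 0.29, adjusted p = 1.1e-04) in KOT, a 12.3-fold change. KOT 80 had the lowest Timp1 of the bleomycin-treated mice, and the levels of WTT and KOT overlapped.

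Timp2 and Timp3 did not share this response. Timp2, which inhibits metalloproteinases and also takes part in the activation of pro-Mmp2 by Mmp14, was at 11.72, 11.96 and 11.94 in WTC and at 11.62, 11.77 and 11.58 in WTT. It was at 11.95, 11.92 and 11.79 in KOC and at 11.77, 11.74 and 11.65 in KOT. Its differences, -0.22 (SE 0.09, adjusted p = 0.102) in WTT and -0.17 (SE 0.09, adjusted p = 0.233) in KOT, did not pass the test. KOC and KOT did not overlap for Timp2, with KOT lower, whereas WTC and WTT overlapped through WTC 76. Without WTC 76 the difference in Fra-1+/+ mice was -0.30 and passed. Leaving out that mouse takes away the overlap, so the pass shows its weight and is no support for a fall. Timp3, an inhibitor that is retained in the matrix and also blocks several ADAM proteases, was at 11.93, 12.35 and 12.14 in WTC and 11.68, 11.84 and 12.17 in WTT. Its level was 12.27, 12.30 and 12.12 in KOC and 11.91, 12.11 and 12.03 in KOT. The differences of -0.24 (SE 0.13, adjusted p = 0.234) and -0.22 (SE 0.13, adjusted p = 0.318) did not pass, although KOT lay below KOC in every mouse. The 95% intervals bound any change of these inhibitors. That of Timp2 ran from -0.41 to -0.03 in WTT and from -0.36 to 0.02 in KOT, and that of Timp3 from -0.53 to 0.05 and from -0.50 to 0.07.

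Mmp14, a membrane-anchored collagenase that activates pro-Mmp2 at the cell surface, had the smallest SE of the proteases that rose. It was at 9.60, 9.42 and 9.58 in WTC and 11, 11.22 and 11.15 in WTT, and at 9.78, 9.92 and 9.72 in KOC and 11, 10.64 and 11.10 in KOT. Mmp14 rose by 1.59 (SE 0.12, adjusted p = 5.4e-05) in WTT, or 3.01-fold, and by 1.11 (SE 0.12, adjusted p = 4.2e-04) in KOT, or 2.15-fold. Its substrate Mmp2, a gelatinase made mainly by fibroblasts, was at 10.70, 10.48 and 10.77 in WTC and at 11.07, 11.58 and 11.12 in WTT. It was at 11.02, 11.14 and 10.68 in KOC and at 11.53, 11.27 and 11.28 in KOT. Mmp2 rose by 0.61 (SE 0.15, adjusted p = 0.0164) in WTT. In KOT the difference was 0.41 (SE 0.15, adjusted p = 0.097) and did not pass, although no KOT mouse overlapped with KOC. The call in WTT did not hold without WTC 157, at 0.52, or without WTT 161, at 0.45, nor by the local-pooled-error test (LPE) that the study's methods name, which compares medians (0.42, adjusted p = 0.169).

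Mmp19, a secreted protease of the matrix and basement membrane, was at 8.16, 7.95 and 8.15 in WTC and 9.20, 9.62 and 10.18 in WTT. Its level was 7.95, 7.99 and 8.03 in KOC, the tightest group of any of the 10 genes, and 9.46, 8.96 and 9.62 in KOT. It rose by 1.58 (SE 0.22, adjusted p = 7.5e-04), or 3.0-fold, in WTT and by 1.35 (SE 0.22, adjusted p = 0.00235), or 2.55-fold, in KOT. Mmp3, stromelysin 1, which cuts proteoglycans and activates other pro-metalloproteinases, was at 7.87, 7.36 and 7.02 in WTC and 8.70, 8.15 and 9.49 in WTT. It was at 7.09, 7.42 and 7.29 in KOC and 8.67, 8.01 and 9.19 in KOT. PBS and bleomycin groups did not overlap for Mmp3, but the bleomycin-treated mice ranged over more than 1 log2 unit. Mmp3 rose by 1.36 (SE 0.35) in both genotypes, with adjusted p = 0.0165 in WTT and 0.0216 in KOT. The call in Fra-1+/+ mice was lost without WTC 157, at 1.33, WTC 158, at 1.17, or WTT 164, at 1.01. In Fra-1-/- mice it was lost without KOC 53, at 1.27, KOC 55, at 1.44, KOT 72, at 1.33, or KOT 81, at 1.08.

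Mmp8 and Mmp9 had the widest spread of the 10 genes in both bleomycin groups, with an SD of 0.80 and 0.89 in WTT and of 1.07 and 0.63 in KOT. Mmp8, the collagenase stored in neutrophil granules, was at 7.17, 6.90 and 7.15 in WTC and at 9.02, 10.27 and 10.52 in WTT. It was at 7.35, 7.25 and 7.27 in KOC and at 9.77, 8.0 and 9.92 in KOT. No bleomycin-treated mouse overlapped with a PBS-treated mouse, and KOT 80 lay more than 1 unit below every other treated mouse. Mmp8 rose by 2.86 (SE 0.46, adjusted p = 0.00163), or 7.26-fold, in WTT and by 1.93 (SE 0.46, adjusted p = 0.0154), or 3.82-fold, in KOT. The call in KOT was lost without KOC 55, at 1.92, KOT 72, at 1.66, or KOT 81, at 1.59.

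Mmp9, the gelatinase of neutrophils and macrophages, was at 8.51, 8.67 and 8.81 in WTC and at 8.55, 9.78 and 10.27 in WTT. It was at 8.35, 8.94 and 8.45 in KOC and at 9.21, 8.39 and 9.64 in KOT. In each genotype 1 treated mouse, WTT 160 and KOT 80, lay within the range of its PBS group, and the others lay above it. The differences, 0.87 (SE 0.39, adjusted p = 0.141) in WTT and 0.50 (SE 0.39, adjusted p = 0.45) in KOT, did not pass by limma. LPE called both, at a difference of medians of 1.11 (adjusted p = 7.5e-07) and 0.75 (adjusted p = 8.4e-04). LPE takes its error from clusters of similar level, so these p-values do not measure the spread of Mmp9 itself between mice. Without WTT 160 the mean difference in Fra-1+/+ mice was 1.37 and passed by limma. Leaving out that mouse takes away the overlap, so the pass shows its weight and is no support for a rise.

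Mmp12, macrophage elastase, followed another order of mice. It was at 7.89, 7.57 and 8.33 in WTC and 8.57, 9.20 and 9.14 in WTT, and at 7.92, 7.58 and 7.96 in KOC and 8.88, 10.04 and 9.32 in KOT. KOT 80, which had the lowest level of its group for 7 of the 10 genes, had the highest Mmp12 of all 12 mice. Mmp12 rose by 1.04 (SE 0.28, adjusted p = 0.0214), or 2.05-fold, in WTT and by 1.59 (SE 0.28, adjusted p = 0.00346), or 3.02-fold, in KOT. In WTT the call was lost without WTC 76, at 1.02, WTC 157, at 0.86, WTT 161, at 0.92, or WTT 164, at 0.95. In Fra-1+/+ mice WTT 160 likewise had the lowest level of its group for 7 of the 10 genes, Mmp12 included, and WTT 164 the highest for 6.

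Marker lists of leukocytes were set beside these genes, and their part in the results was not tested. The mean level of 12 neutrophil markers was 7.56 to 7.72 in WTC, and 7.84, 8.51 and 9.32 in WTT 160, 161 and 164, the order of Mmp8 and Mmp9 in those mice. In KOC it was 7.51 to 7.77, and in KOT 72, 80 and 81 it was 7.91, 7.38 and 8.24, again the order of Mmp8 and Mmp9. Of the 12 markers, 2 rose in WTT (Ngp and Trem1) and 0 in KOT by limma (1 at an unadjusted p under 0.05), with 8 and 1 called by LPE. The 2 in WTT compare with 10.2% of all clusters that rose, and became 8 without WTT 160 and 1 without WTC 76, WTC 157, WTC 158, WTT 161 or WTT 164. KOT 80 had a neutrophil mean below all 6 PBS-treated mice, while its Mmp8, at 8.0, was above all of them. Array values have no true zero, so no marker can be called absent. Of the 12, 11 had a higher mean in WTT than in WTC (median 1.11) and 9 in KOT than in KOC (median 0.11). Over all 23410 clusters, 12623 and 12621 had a higher mean (median 0.02 in both), and LPE called 808 and 1042 higher. The mean of 11 macrophage markers was 8.49 to 8.71 in WTC, 9.41 to 9.97 in WTT, 8.48 to 8.63 in KOC and 9.29 to 9.81 in KOT. Of these 11, 8 rose in WTT and 9 in KOT, beside 10.2% and 7.42% of all clusters. KOT 80, with the highest Mmp12, had the lowest macrophage mean of the treated mice, but the list was not uniform there. Itgax, at 10.13, was the highest of all 12 mice and Siglecf, at 8.62, the highest of the treated mice. Adgre1, Csf1r, Fcgr1 and Arg1 were the lowest of the treated mice, and Ms4a7, at 8.68, was lowest together with WTT 164.

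**Figure D2:**
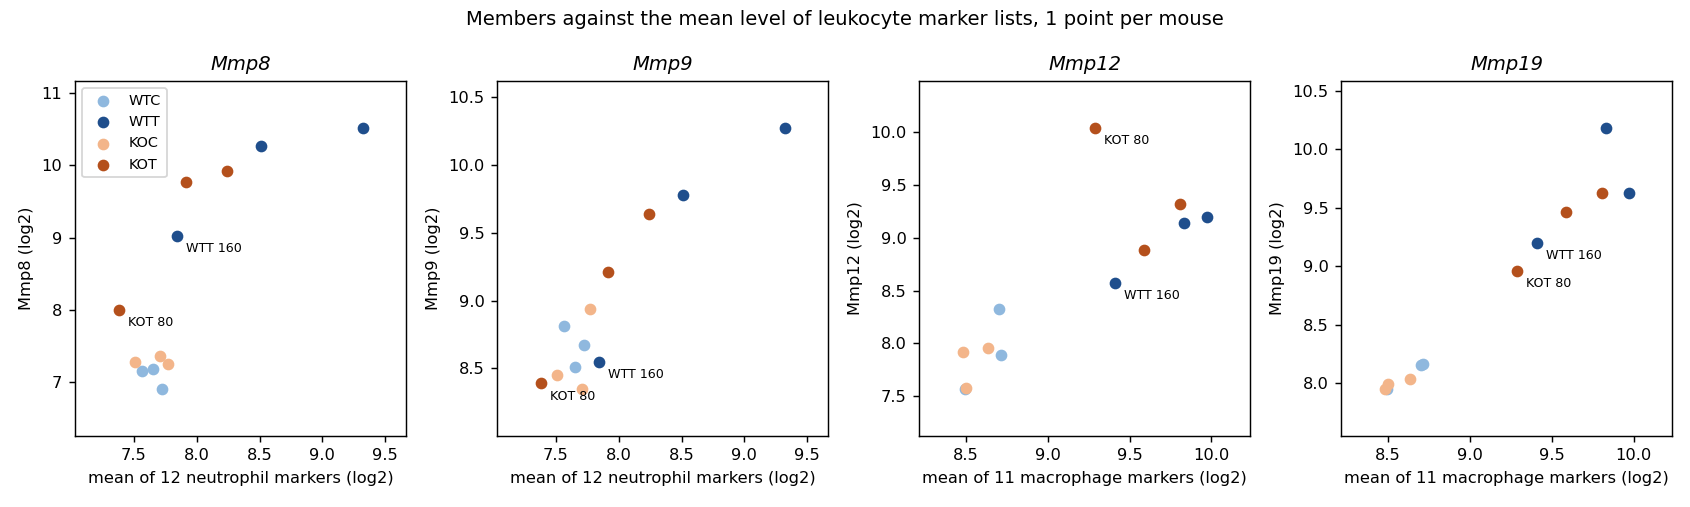
Log2 level of Mmp8 and Mmp9 against the mean log2 level of 12 neutrophil markers, and of Mmp12 and Mmp19 against that of 11 macrophage markers, with 1 point for each of the 12 mice coloured by group. WTT 160 and KOT 80 are marked: both sit at the PBS level of Mmp9, and KOT 80 has the highest Mmp12 at 10.04.

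Lists for resident cells were counted in the same way, where 10.2% of all clusters rose and 11.3% fell in WTT. In KOT 7.42% of all clusters rose and 7.98% fell. Of 12 fibroblast markers 2 rose and 3 fell in WTT, and 1 rose and 3 fell in KOT, with group ranges of their mean level of 10.07 to 10.14 in WTC, 9.83 to 9.98 in WTT, 10.15 to 10.38 in KOC and 10.02 to 10.17 in KOT. Of 10 epithelial markers 6 fell in WTT and 5 in KOT, and of 8 endothelial markers 6 and 7 fell, with 0 of either list rising. The mean epithelial level was 12.22 to 12.34 over the PBS-treated mice of both genotypes and 11.53 to 12.07 over the treated mice. The mean endothelial level was 11.10 to 11.35 with PBS and 10.66 to 10.92 with bleomycin.

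The question of the design was whether loss of Fra-1 alters the lung's response, and for these genes no difference between genotypes passed. In KOC against WTC 0 of the 10 genes passed by limma and 0 by LPE, where 3 of 23410 clusters (0.0128%) passed. At an unadjusted p under 0.05 there was 1, Mmp14, against 2299 clusters in all. Mmp14 was 0.27 higher in KOC (SE 0.12, adjusted p = 0.488), with a mean of 9.81 ± 0.10 (SD, n = 3) against 9.53 ± 0.10. Groups did not overlap for 2 of the 10 genes, Mmp8 and Mmp14, both higher in KOC, where 16.3% of all clusters did not overlap. The difference of Mmp8 was 0.22 (SE 0.46, adjusted p = 0.928). This SE pools the spread of all 4 groups. The SD of Mmp8 was 0.15 in WTC and 0.05 in KOC, against 0.80 in WTT and 1.07 in KOT.

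In KOT against WTT 0 of the 10 genes passed by limma, 0 reached an unadjusted p under 0.05 and 0 passed by LPE, beside 10 clusters (0.0427%) that passed by limma in all. The groups overlapped for all 10 genes, where 15.7% of clusters did not. Mmp8 showed the largest difference of means, -0.71 (SE 0.46, adjusted p = 0.614), with a 95% interval from -1.71 to 0.30. Mmp9 followed at -0.46 (SE 0.39, adjusted p = 0.717) and Mmp12 at 0.44 (SE 0.28, adjusted p = 0.603), the latter higher in KOT. The neutrophil markers lay the same way as Mmp8 and Mmp9 in this comparison: 11 of 12 had a lower mean in KOT, with a median of -0.83, and their part was not tested. Of the 12 markers, 0 passed by limma, 4 reached an unadjusted p under 0.05 (S100a8, Ly6g, Ngp and Elane) and 4 were called lower by LPE (S100a8, Ly6g, Ngp and Trem1). Over all 23410 clusters, 12688 had a lower mean in KOT, 2480 reached an unadjusted p under 0.05 and 35 were called lower by LPE. The mean level of the 12 markers overlapped between the groups, at 7.84 to 9.32 in WTT and 7.38 to 8.24 in KOT. For Timp1 the difference was -0.24, with an interval from -0.88 to 0.40, so a change of 1 log2 unit or more by genotype lay outside it. The intervals of Timp2, -0.13 to 0.25, and Mmp14, -0.47 to 0.04, were narrower. Those of Mmp8, Mmp9 (-1.31 to 0.40) and Mmp12 (-0.17 to 1.05) left room for differences of over 1 unit.

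The difference between the responses, (KOT minus KOC) minus (WTT minus WTC), tests directly whether bleomycin moved a gene more in one genotype. It passed for 0 of the 10 genes and for 0% of all clusters by limma (1193 clusters at an unadjusted p under 0.05); LPE gives no such test. Mmp14 alone of the 10 reached an unadjusted p under 0.05, at 0.0128. Its response was 0.49 smaller in Fra-1-/- mice, a difference of -0.49 (SE 0.17, adjusted p = 0.914) with an interval from -0.85 to -0.12. About equal parts of it came from the higher PBS level, 0.27, and the lower bleomycin level, -0.21. For Mmp8 the difference between responses was -0.93 (SE 0.65), for Mmp12 0.56 (SE 0.39), and for Mmp3 -0.01 (SE 0.49), with intervals from -2.35 to 0.50, -0.31 to 1.42 and -1.08 to 1.07. That Mmp2 passed in WTT and not in KOT was no difference between genotypes by this test, at -0.19 (SE 0.22) and an interval from -0.67 to 0.28.

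**Figure D3:**
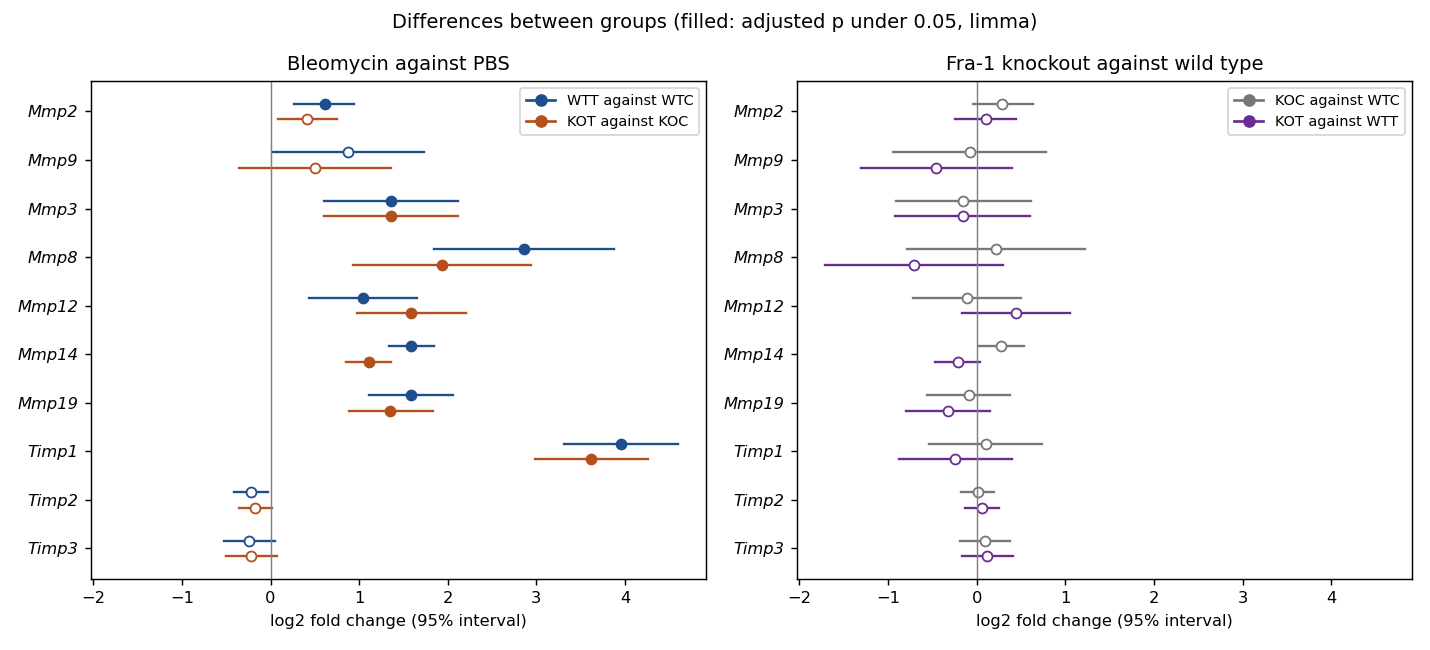
Log2 fold changes of the 10 genes with 95% intervals from the limma fit, for bleomycin against PBS in each genotype (left) and for Fra-1-/- against Fra-1+/+ mice with each treatment (right). Filled points passed an adjusted p under 0.05: 7 in WTT and 6 in KOT on the left, and none on the right.

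The rest of the family was counted beside the background of all clusters. Of 15 other metalloproteinase genes with a cluster of their own, 3 rose and 2 fell in WTT, with a median of 0.11, where 10.2% of all clusters rose and 11.3% fell. In KOT 3 rose and 1 fell, with a median of 0.17, beside 7.42% and 7.98%. The 10 genes above were chosen with results of these data known, so the counts of both groups cannot be set against each other. By LPE 1 gene of the 15, Mmp13, rose in each genotype and 0 fell. Timp4 passed in neither, at -0.26 and -0.15. Mmp13, the main interstitial collagenase of mice, was at 6.12 to 6.43 in WTC, 6.97 to 7.27 in WTT, 6.14 to 6.25 in KOC and 6.94 to 7.73 in KOT. It rose by 0.86 (SE 0.18, adjusted p = 0.00546) in WTT and by 1.24 (SE 0.18, adjusted p = 0.00138) in KOT. Mmp10, stromelysin 2, was at 6.64 to 6.65 in WTC, 7.2 to 7.36 in WTT, 6.49 to 6.52 in KOC and 6.93 to 7.05 in KOT, so the 4 groups did not overlap at all. It rose by 0.62 (SE 0.07, adjusted p = 2.2e-04) and by 0.47 (SE 0.07, adjusted p = 0.00138). With bleomycin Mmp10 was 0.29 lower in KOT than in WTT (SE 0.07), a difference that did not pass over all clusters (adjusted p = 0.21). Mmp25, a membrane-anchored protease of leukocytes, rose by 0.65 and 0.57, with adjusted p = 0.0231 and 0.0497, and LPE called neither (adjusted p = 0.0452 and 0.115, against its threshold of 0.01). In WTT the call was lost without WTC 157, at 0.62, WTC 158, at 0.57, or WTT 164, at 0.43. In KOT it was lost in 14 of 21 alternatives, among them cyclic loess, equal array medians, all clusters of the array and leaving out any 1 of the 6 mice compared, WTC 157, WTC 158 or WTT 161, with values from 0.46 to 0.65. Mmp11, stromelysin 3, fell by 0.57 (adjusted p = 0.0104) in WTT and by 0.71 (adjusted p = 0.00479) in KOT. Mmp28, epilysin of the epithelium, fell by 0.61 (adjusted p = 0.0228) in WTT, and in KOT its difference of -0.46 did not pass (adjusted p = 0.0933). Its call in WTT was lost without WTC 157 or WTC 158, at -0.61, or without WTT 164, at -0.45.

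Position in the genome grouped several of these genes. The gene table of GRCm38.p6 lists 10 consecutive coding genes of the family on chromosome 9, in the order Mmp13, Mmp12, Mmp1b, Mmp3, Mmp1a, Mmp10, Mmp8, Mmp27, Mmp20 and Mmp7. Of these, 5 rose in both genotypes: Mmp13, Mmp12, Mmp3, Mmp10 and Mmp8. Over the whole family, 9 of 26 genes rose in both, Mmp25 with the call at the threshold in KOT included. Over all clusters 10.2% rose in WTT and 7.42% in KOT, so at most 7.42% rose in both. Mmp3, Mmp8, Mmp12, Mmp14, Mmp19 and Timp1 were chosen with results of these data known. The counts therefore describe the family and are no test of the locus. All of the 7 family genes with TGACTCA or TGAGTCA before a start site, of 21 with a matched site, lay in the row on chromosome 9: Mmp10, Mmp12, Mmp13, Mmp1a, Mmp1b, Mmp3 and Mmp7. Of the 7, 4 rose in both genotypes (Mmp10, Mmp12, Mmp13 and Mmp3). Of the other 14 with a matched site, 4 did so too (Mmp14, Mmp25, Mmp8 and Timp1). Mmp19, which also rose in both, had no matched site and is in neither count. Only the exact sequence was searched, not variants of it. With these numbers the sequence is a description of the genes and was not tested against the response.

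Genes that act on these proteases or through them changed as well. Of 13 regulators and partners 7 rose and 2 fell in WTT, with a median of 0.43, and 4 rose and 1 fell in KOT, with a median of 0.38. Over all clusters 10.2% rose and 11.3% fell in WTT, and 7.42% rose and 7.98% fell in KOT. Reck, a membrane-anchored inhibitor of Mmp2, Mmp9 and Mmp14, went against Timp1. It was at 9.87, 10.15 and 10 in WTC and 9.31, 8.70 and 9.0 in WTT, and at 10.17, 10.25 and 10 in KOC and 9.21, 9.54 and 9.08 in KOT. Reck fell by 1.01 (SE 0.16, adjusted p = 0.00134) in WTT and by 0.86 (SE 0.16, adjusted p = 0.0041) in KOT, with no overlap between PBS and bleomycin. Furin, the convertase that removes the propeptide of Mmp14, rose by 0.68 (SE 0.11, adjusted p = 0.0019) and 0.50 (SE 0.11, adjusted p = 0.0124). The call in KOT was lost without KOT 81, at 0.46, at an adjusted p under 0.01 and by LPE (adjusted p = 0.115). Tfpi2, a matrix-associated inhibitor of serine proteases, rose by 1.26 (SE 0.15) in both genotypes, with adjusted p = 3.9e-04 and 6.8e-04. Thbs1, which encodes thrombospondin 1, a matricellular protein that binds metalloproteinases, rose by 2.03 (SE 0.18, adjusted p = 1.1e-04) and 1.70 (SE 0.18, adjusted p = 4.4e-04). Its relative Thbs2 rose in WTT, by 0.36 (adjusted p = 0.0111), and differed by 0.17 in KOT (adjusted p = 0.217). Lrp1, the receptor that clears Mmp and Timp complexes, rose by 0.62 (SE 0.08, adjusted p = 5.4e-04) and 0.39 (SE 0.08, adjusted p = 0.00671). LPE did not call Lrp1 in KOT (adjusted p = 0.107) or Thbs2 in WTT (adjusted p = 0.403).

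Most genes for the substrates rose. Of 10 matrix genes measured, 9 rose in WTT, with a median of 1.46, and 9 rose in KOT, with a median of 0.92. Over all clusters 10.2% and 7.42% rose. Tnc, which encodes the injury matrix protein tenascin C, was at 8.48, 7.58 and 7.89 in WTC and 11.20, 11.43 and 11.82 in WTT, and at 8.33, 8.54 and 8.25 in KOC and 10.99, 10.29 and 10.87 in KOT. It rose by 3.50 (SE 0.24, adjusted p = 5.4e-05) in WTT and 2.34 (SE 0.24, adjusted p = 4.2e-04) in KOT, and no KOT mouse reached the level of the lowest WTT mouse, a difference of -0.77 that did not pass (adjusted p = 0.328). Vcan, the proteoglycan versican, rose by 2.66 and 2.14, and Fn1, fibronectin, by 1.51 and 1.69. The fibrillar collagens Col1a1 and Col3a1 rose by 1.45 and 1.48 in WTT and by 0.99 and 0.92 in KOT, and the basement membrane collagen Col4a1 by 0.90 and 0.49. The largest adjusted p by limma among the changes of Vcan, Fn1, Col1a1, Col3a1 and Col4a1 was 0.00555, for Col4a1 in KOT. LPE did not call Col4a1 in KOT (adjusted p = 0.038, against its threshold of 0.01). Between genotypes 0 of the 10 matrix genes passed. With bleomycin 10 of 10 had a lower mean in KOT than in WTT, with a median of -0.29 against -0.01 over all clusters, and 5 reached an unadjusted p under 0.05 (2480 of 23410 clusters did), with 0 called by LPE. The response was smaller in Fra-1-/- mice for 9 of the 10, all but Fn1, with a median difference of -0.46 against -0.01. Of these, 5 reached an unadjusted p under 0.05, where 1193 of 23410 clusters did, and 0 passed by limma. The list was chosen with results of these data known, and its genes were measured in the same mice. These counts therefore describe the list and are no test of it.

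**Figure D4:**
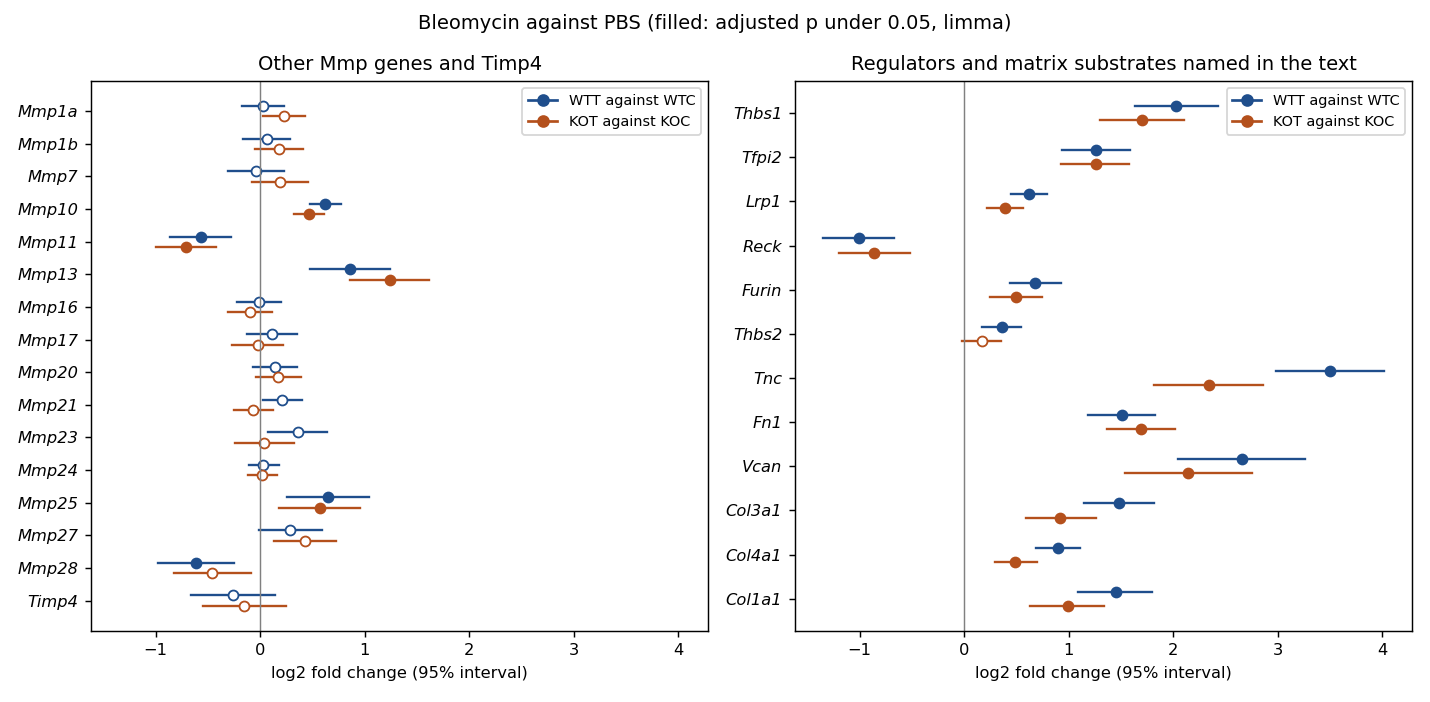
Log2 fold changes with 95% intervals for bleomycin against PBS in each genotype, for 15 other Mmp genes and Timp4 (left) and for the regulators and matrix substrates named in the text (right). Filled points passed an adjusted p under 0.05 by limma. On the left most open points sit near 0, and on the right Reck, at -1.01 and -0.86, lies on the other side of 0 from the remaining genes.

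Across the 12 arrays the genes whose pattern was most like that of each member were ranked by Pearson's r. The 12 arrays share the treatment contrast, so a high r is shared by many pairs of genes that moved with bleomycin. Mmp9 was most like Csf3r (r = 0.977), Cxcr2 (r = 0.956) and Clec4d (r = 0.955), of which Csf3r and Cxcr2, receptors of neutrophils for growth factor and chemokines, are on the neutrophil list. Mmp8 was most like Ms4a4a (r = 0.987), Slfn1 and the monocyte chemokine Ccl2 (both r = 0.983), none of them on that list. Mmp12 was most like Ctsk (r = 0.960), which encodes the collagen-degrading protease cathepsin K, then Hsd11b2 (r = 0.951) and Slc16a14 (r = 0.940). For Mmp14 these were Sgpl1 (r = 0.993), Gla (r = 0.992) and the complement receptor C3ar1 (r = 0.991), and for Mmp19 Vcan (r = 0.992), Clec5a (r = 0.991) and Rnh1 (r = 0.990). Timp1 was most like Serpina3n, an acute-phase protease inhibitor, Chsy3 and Litaf (each r = 0.988). Mmp3 was most like Hspa9 (r = 0.981) and Mmp2 most like Prickle3 (r = 0.966). The values were lower for the inhibitors that did not rise: Timp2 reached 0.956 with Cryab, and Timp3, whose 12 values spanned 0.66 log2 units, 0.930 with Anapc16.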

How the data were processed

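Total RNA of 12 left lungs was hybridised to Affymetrix MoGene arrays. The authors normalised probe signals by quantiles over all samples, summarised them per transcript cluster with RMA in Affymetrix Power Tools and deposited log2 values, which were used unchanged. The genome build of the array annotation is not given in the sources used here, so no cluster coordinates are given. A linear model with 4 group means was fitted to the 23410 clusters with a symbol (limma 3.58.1, R 4.3.3), with 5 comparisons, two-sided p-values and Benjamini-Hochberg adjustment over all 23410. A cluster passed at an adjusted p under 0.05. The SE pools the spread of all 4 groups. LPE was rewritten with 100 intensity bins and passed at an adjusted p under 0.01. Both were run on simulated normal data with changes added, as a check of the code. That check set no limit on false calls and does not measure the error of either test in these mice. With 3 mice against 3 no exact test falls below p = 0.1, and precision is limited by the few arrays. The members and lists were chosen with earlier results of these data known. Other Mmp genes are named where they passed, and of the other pathway lists the 6 with the smallest p. Members are described in full.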

Additional observations from a re-analysis of the deposited data

How the results depend on the processing

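Timp1, Mmp14 and Mmp19 passed in both genotypes, and no gene of the 10 passed between genotypes or in the difference between responses, under every alternative run: LPE (which also gives the medians), an adjusted p under 0.01, equal array medians, cyclic loess, a fit to 6 arrays alone, moderation with a trend, weights per array, a highest group mean of at least 6, all 35556 clusters, and leaving out each array. LPE and the 6-array fit could not be run for the difference between responses, and each member has 1 cluster, so the alternative of other clusters gave no value. In WTT the 7 genes that passed became 4 at an adjusted p under 0.01 and 4 to 8 when 1 array was left out, with 4 without WTC 157. In KOT the 6 became 4 to 6 when 1 array was left out, 7 by LPE, with Mmp9, and 8 with array weights, with Mmp2 (0.43) and Timp3 (-0.30). At an adjusted p under 0.01 by limma the KOT calls of Mmp3 (adjusted p = 0.0216) and Mmp8 (adjusted p = 0.0154) were lost. Other Mmp and Timp genes that passed fell in number from 5 to 1 by LPE and 2 at the stricter threshold in WTT, and from 4 to 1 by LPE in KOT. Regulators fell from 9 to 5 in WTT at the stricter threshold.

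The differences that changed sign were small and passed in no setting. In KOC against WTC these were Mmp12 (0.02 by LPE) and Timp2 (-0.02 by LPE and by cyclic loess), in KOT against WTT Timp1 (0.20 by LPE), and in the difference between responses Mmp3 (0.10 with array weights), Timp2 (0.00 with equal array medians) and Timp3 (-0.06 with array weights, -0.03 with equal array medians). With 1 array left out, KOC against WTC ranged from -0.35 to 0.08 for Mmp3, -0.26 to 0.04 for Mmp9, -0.29 to 0.09 for Mmp12, -0.03 to 0.33 for Timp1, -0.07 to 0.06 for Timp2 and -0.01 to 0.20 for Timp3. KOT against WTT ranged from -0.47 to 0.20 for Mmp3 and -0.47 to 0.10 for Timp1. The difference between responses ranged from -0.32 to 0.35 for Mmp3, -0.47 to 0.03 for Mmp19, -0.57 to 0.00 for Timp1 and -0.08 to 0.16 for Timp3. The cause was not tested. No paired analysis was possible because the groups share no animal numbers.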
